A study of Mus musculus with 4 samples.

Results

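The genes described here encode antiviral effectors and RNA sensors that interferon is known to induce. They are a list of 36 symbols of antiviral interferon-stimulated genes, chosen with earlier results of these data known. The STAT and IRF factors were left out, and so were the interferon-inducible GTPases other than Mx1 and Mx2. Probe sets that name exactly 1 gene were found for 34 of the 36, with 64 probe sets in all, out of 18193 genes named in the series. The probe set of Isg15 names a second gene as well and Ifi44 has none that names it, so neither is analysed here. They were followed on 4 Affymetrix whole-genome mouse arrays of total RNA from embryonic fibroblasts (MEFs) of C57BL/6 background. The 4 conditions, with 1 array each, were FAN +/+ untreated, FAN +/+ with TNF, FAN -/- untreated and FAN -/- with TNF. FAN, the product of Nsmaf, is an adaptor of the TNF receptor, and the +/+ and -/- cells are called wild type and knockout below. All cells were without serum for 24 h in total, and the treated cells received tumour necrosis factor (TNF, 50 ng/ml) for the last 16 h, after 8 h without it. The genotype entry of the labels goes against the titles for 2 samples, calling the TNF-treated FAN +/+ cells knockout and the untreated FAN -/- cells wild type, and the titles were followed. The sources used here do not say whether the cells of a genotype came from 1 embryo, pooled embryos or separate cultures.

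Type I interferon binds a receptor whose kinases activate STAT factors, and these, with IRF9, switch on a large set of genes through a promoter motif called the interferon-stimulated response element (ISRE). The proteins act at successive steps of infection. Membrane proteins block entry or release of virus, helicases detect foreign RNA, and enzymes such as the OAS proteins and PKR stop translation or degrade RNA. Fibroblasts make interferon-beta and respond to it, and TNF alone can also induce some of these genes.

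Values are the deposited log2 probe set values. A floor of log2 6.267 (77.0 signal units), the median of all values, marks where differences are no longer read. Fold changes were taken after raising lower values to it, so a fold with 1 side at the floor is given as "at least". Where a gene has several probe sets, the one with the highest mean stands for it, and a gene counts as changed by the fold rule at 2-fold, a log2 difference of 1. With 1 array per condition no p-value can be given for such a difference, the number of arrays limits the precision, and "higher" and "lower" describe these arrays. "Rose" and "fell" are used only for genes past an additive limma fit of genotype and TNF over all 4 arrays, which tested 11817 genes, 30 of them among the 34. For the genotype term the fit takes the untreated and the TNF-treated array of a genotype as its replicates. A genotype p-value therefore cannot tell FAN apart from another difference between the wild-type and knockout cell preparations. For the TNF term the wild-type and the knockout array of a treatment stand in as replicates. Any other difference between untreated and treated cultures that both genotypes share cannot be told apart from TNF. The arrays had medians of 6.21 to 6.3, with 49.2% to 50.5% of probe sets above the floor. Nsmaf fell in knockout cells (-1.06 ± 0.11 log2, SE, adjusted p = 0.019) but stayed above the floor there, with signals of 496 and 376 in wild-type and of 240 and 179 in knockout cells, untreated and with TNF. The sources used here do not say whether its probe set lies in the deleted part. Both arrays titled FAN +/+ had a higher Nsmaf signal than both titled FAN -/-, so this gene followed the titles. The TNF-induced NF-kB inhibitor gene Tnfaip3 rose with TNF (3.82 ± 0.09 log2, adjusted p = 0.0049). All 12 fibroblast markers lay above the floor on every array, but Pdgfra, Dcn and Lum fell in knockout cells. In bulk RNA, fewer cells of a type and less RNA per cell cannot be told apart.

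Of the 34 genes, 23 lay above the floor on all 4 arrays, 9 on 1 to 3 arrays, and Mx1 and Cmpk2 on none. With TNF, 13 of 34 were at least 2-fold higher in wild-type cells, against a background of 1.48% of all named genes (2.2% of the 12224 above the floor on at least 1 array). In knockout cells 6 of 34 were, against 0.907% (1.35% of those above the floor), and these 6 were among the 13. None was 2-fold lower in either genotype, where 1.29% and 0.72% of all genes were. The median TNF difference was 0.67 log2 in wild-type cells, against 0.28 log2 in knockout cells, beside 0.0 over all genes in both. On the deposited values, before the floor, the TNF-treated wild-type array was the highest of the 4 for 29 of 34 genes, as it was for 21.2% of all genes. The untreated knockout array was the lowest for 22 of 34, as it was for 22.0% of all genes. The comparisons share arrays and are therefore not independent of each other. Because the list was chosen with earlier results of these data known, its excess over the background is no independent evidence.

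**Figure D1:**
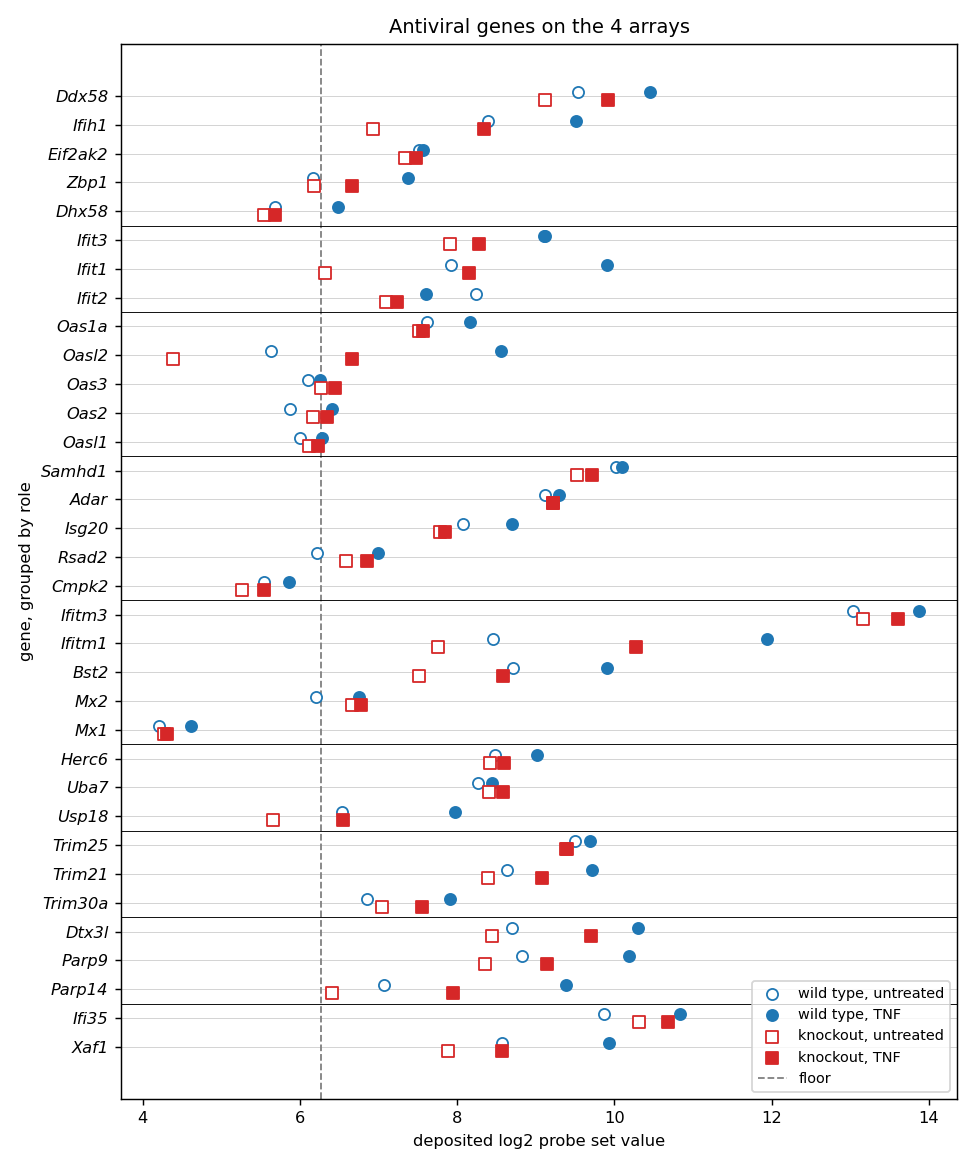
Deposited log2 values of the 34 genes on the 4 arrays, 1 point per array, with genes grouped by role and the floor at 6.267 as a dashed line. The filled blue points of TNF-treated wild-type cells lie farthest right for 29 of 34 genes.

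Of the 5 RNA sensor genes, 2 were at least 2-fold higher with TNF in wild-type cells (Ifih1 and Zbp1) and 1 in knockout cells (Ifih1). Ifih1 encodes MDA5, the helicase that detects long double-stranded RNA. Its log2 values were 8.39 without and 9.51 with TNF in wild-type cells, and 6.93 and 8.34 in knockout cells. The TNF-treated knockout value thus did not exceed that of untreated wild-type cells. Ifih1 was 2.17-fold higher with TNF in wild-type and 2.67-fold higher in knockout cells, and it rose by 1.27 ± 0.13 log2 (SE, adjusted p = 0.026). Its genotype difference was 2.77-fold without and 2.24-fold with TNF, and it fell in knockout cells (-1.32 ± 0.13 log2, adjusted p = 0.018). Ddx58 encodes RIG-I, which detects RNA with a 5' triphosphate. It stood at 9.54 and 10.45 in wild-type cells and at 9.12 and 9.92 in knockout cells. These are 1.89-fold and 1.74-fold differences, under the 2-fold rule in both genotypes, yet close enough to each other for Ddx58 to pass limma (0.86 ± 0.10 log2, adjusted p = 0.035).

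The remaining sensors lay lower or moved less. Zbp1 encodes a sensor of left-handed nucleic acid that can start necroptosis. It lay at 6.17 and 7.38 in wild-type and 6.18 and 6.66 in knockout cells, so both untreated values were at the floor and the folds are bounds, at least 2.16-fold and at least 1.31-fold. It did not pass limma (0.75 ± 0.19 log2, adjusted p = 0.15). Dhx58 encodes LGP2, a helper of MDA5, and was above the floor only with TNF in wild-type cells, at 6.48. Eif2ak2 encodes PKR, a kinase that stops translation on sensing double-stranded RNA. Its values of 7.52, 7.56, 7.34 and 7.48 in the order untreated and TNF-treated wild type, untreated and TNF-treated knockout, spanned only a narrow range.

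The Ifit genes encode proteins that bind foreign RNA and block its translation. They lie together on chromosome 19, where RefSeq places 3 other protein-coding genes between Ifit3 and Ifit1 and none between Ifit2 and Ifit3. All 3 were at least 2-fold lower in untreated knockout cells, and 1 of 3, Ifit1, was at least 2-fold higher with TNF in each genotype. Ifit1 had values of 7.92 and 9.90 in wild-type cells and of 6.32 and 8.15 in knockout cells. Both genotypes gained by similar amounts, 3.95-fold and 3.56-fold, from different starting values. Ifit1 rose with TNF by 1.91 ± 0.12 log2 (SE, adjusted p = 0.011) and fell in knockout cells (-1.68 ± 0.12 log2, adjusted p = 0.0097). Ifit3 stood at 9.12 and 9.11 in wild-type cells and at 7.91 and 8.28 in knockout cells. Its TNF difference was not past the test (0.18 ± 0.14 log2, adjusted p = 0.56), while its genotype difference was (-1.02 ± 0.14 log2, adjusted p = 0.032). Ifit2, whose protein can also promote cell death, went from 8.24 to 7.61 with TNF in wild-type cells and from 7.09 to 7.24 in knockout cells. It was 2.22-fold lower in untreated knockout cells and 1.29-fold lower with TNF, and neither term passed limma (adjusted p = 0.61 for TNF and 0.13 for genotype).

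Promoter sequences are shown for the genes 2-fold higher with TNF in both genotypes that carry the ISRE core, and for Ifit3, added after its values were seen, because it carries the core and was under 2-fold apart with TNF in both genotypes. They were read from RefSeq windows (GRCm38.p6) of 300 bases around each start, on the gene's strand, with positions counted from the start, and capitals mark the core GAAANNGAAA on either strand:
Ifit1, chr19:34640770-34640828 (+): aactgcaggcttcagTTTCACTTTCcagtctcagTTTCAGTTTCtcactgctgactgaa
Ifit3, chr19:34583358-34583431 (+): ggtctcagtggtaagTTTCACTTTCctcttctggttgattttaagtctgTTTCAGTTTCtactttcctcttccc
Bst2, chr8:71537572-71537617 (-): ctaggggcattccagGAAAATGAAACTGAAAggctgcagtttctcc
Ifih1, chr2:62646206-62646233 (-): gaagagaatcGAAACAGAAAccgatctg
Ifit1 and Ifit3 carry the same pair of core versions, on the strand opposite to the gene, beginning at -104 and -85 in Ifit1 and at -156 and -122 in Ifit3. In Bst2 the capitals are a pair of overlapping matches, which begin at -130 and -124. The Ifih1 match lies at bases 33 to 42 of the transcribed part.

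Over all genes with a promoter window, 4.0% of 27025 held the ISRE core, and of the 28 listed genes with a window (Isg15 and Ifi44 included) 13 did. No window was available for Mx1, Mx2, Oas2, Dhx58, Usp18, Zbp1, Parp9 and Parp14, so their promoters were not searched. Among them Parp14 was 2-fold higher with TNF in both genotypes, and Usp18, Zbp1 and Parp9 only in wild-type cells by the fold rule. The gamma-activated sequence TTCNNNGAA, bound by STAT dimers, was found for 9 of 28 (9.6% of all genes), and the NF-kB consensus for 6 of 28 (9.6%), both strands searched. In Bst2 matches to all 3 motifs lie together, the NF-kB match overlapping the gamma-activated sequence and that one overlapping the first ISRE core. Of the 26 genes with both a window and array values, 12 held the core, and their TNF differences in wild-type cells ran from -0.02 to 1.98 log2 with 5 of 12 at least 2-fold higher. The 14 without it ran from -0.63 to 3.48 log2, with 4 of 14 at least 2-fold higher, Ifitm1, Oasl2, Dtx3l and Xaf1. A match is a description of letters in this window and no evidence of binding. A missing match does not show that a gene lacks the element, which may lie outside the window or differ from these letters.

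Among the Oas genes, most of whose products make 2'-5' oligoadenylates that activate RNase L, Oasl2 stood apart. Oasl2 had values of 5.63 and 8.56 in wild-type and of 4.39 and 6.66 in knockout cells. Both untreated values were below the floor, so the TNF folds are bounds, at least 4.89-fold in wild-type and at least 1.32-fold in knockout cells, and with TNF the knockout value was 3.71-fold lower. On the deposited values the TNF differences were 2.93 and 2.28 log2, and the gap between the genotypes was -0.65 log2 against -1.89 log2 after the floor. Oasl2 did not pass limma (1.34 ± 0.46 log2, adjusted p = 0.23). Its neighbour Oasl1 lay between 6.00 and 6.28 on all 4 arrays, at or near the floor. Oas2 (5.88 to 6.41) and Oas3 (6.10 to 6.45) were equally close to it. Oas1a had values of 7.62 and 8.16 in wild-type cells and of 7.52 and 7.56 in knockout cells, a TNF difference of 0.54 against 0.05 log2 that did not pass limma (adjusted p = 0.40).

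Of the 3 ADP-ribosylation genes, all 3 passed the 2-fold rule with TNF in the wild type and 2 in the knockout. Parp9 and Dtx3l encode partners in 1 complex that couples ADP-ribosylation to ubiquitin transfer, Parp14 encodes a mono-ADP-ribosyltransferase, and the 3 lie side by side on chromosome 16. Parp14 had values of 7.07 and 9.39 in wild-type and of 6.41 and 7.95 in knockout cells. It was 5.02-fold and 2.92-fold higher with TNF, and it rose by 1.94 ± 0.21 log2 (SE, adjusted p = 0.029). Dtx3l had values of 8.70 and 10.30 in wild-type and of 8.44 and 9.70 in knockout cells. It was 3.03-fold and 2.39-fold higher and rose by 1.43 ± 0.13 log2 (adjusted p = 0.021). Parp9 went from 8.83 to 10.19 in wild-type and from 8.36 to 9.14 in knockout cells. Its 2.57-fold and 1.71-fold differences were less alike, and Parp9 did not pass (1.07 ± 0.17 log2, adjusted p = 0.065). With TNF, all 3 were lower in knockout cells, Parp14 by 2.71-fold, Parp9 by 2.08-fold and Dtx3l by 1.51-fold.

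Ifitm1 had the largest TNF difference of the 34 genes in both genotypes. The IFITM proteins sit in cell and endosomal membranes and block fusion of enveloped viruses. Ifitm1 had values of 8.46 and 11.94 in wild-type cells and of 7.76 and 10.27 in knockout cells. TNF-treated cells had an 11.2-fold higher value in the wild type and a 5.70-fold higher one in the knockout, and it rose by 3.0 ± 0.25 log2 (SE, adjusted p = 0.018). The TNF-treated knockout value was 3.19-fold below the wild-type one. Its genotype term did not pass (-1.19 ± 0.25 log2, adjusted p = 0.071). Ifitm3, the next protein-coding gene on chromosome 7, had values of 13.03 and 13.88 in wild-type and of 13.16 and 13.61 in knockout cells. Its differences of 1.81-fold and 1.37-fold did not pass (adjusted p = 0.074), and its values lay near the highest value of the data, 14.4.

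Bst2 encodes tetherin, which holds budding virus at the cell surface. It had values of 8.71 and 9.90 in wild-type and of 7.52 and 8.58 in knockout cells. As with Ifih1, the TNF-treated knockout cells did not exceed untreated wild-type cells. Bst2 was 2.28-fold and 2.08-fold higher with TNF and rose by 1.12 ± 0.12 log2 (SE, adjusted p = 0.025). It was 2.28-fold lower in untreated and 2.50-fold lower in TNF-treated knockout cells and fell by genotype (-1.26 ± 0.12 log2, adjusted p = 0.015). The GTPase genes Mx1 and Mx2 gave little signal. Mx1, which laboratory strains such as C57BL/6 carry in a defective form, lay at 4.21 to 4.61, below the floor, and Mx2 at 6.20 to 6.78.

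Genes acting on nucleotides and RNA showed no 2-fold difference in any comparison. Rsad2 encodes viperin, which makes a chain-terminating nucleotide. Its values were 6.22 and 6.99 in wild-type and 6.59 and 6.86 in knockout cells, so it lay near the floor throughout (0.50 ± 0.14 log2 with TNF, adjusted p = 0.17). Its neighbour Cmpk2, which encodes a nucleotide kinase, lay at 5.27 to 5.86. Isg20, the gene of an RNA exonuclease, had values of 8.08 and 8.70 in wild-type cells and of 7.78 and 7.84 in knockout cells. The higher value of TNF-treated wild-type cells left Isg20 1.82-fold lower in knockout cells with TNF, without passing limma (adjusted p = 0.14). Adar, the gene of an RNA-editing enzyme, stayed between 9.12 and 9.29. Samhd1, whose product lowers nucleotide pools, lay at 10.02 and 10.10 in wild-type and at 9.53 and 9.72 in knockout cells.

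ISG15 is a ubiquitin-like protein that Uba7 activates, Herc6 attaches in the mouse and Usp18 removes. Usp18 had values of 6.53 and 7.97 in wild-type and of 5.66 and 6.55 in knockout cells. It was 2.71-fold higher with TNF in wild-type cells and at least 1.22-fold higher in knockout cells, where the untreated value was below the floor, and it did not pass limma (0.86 ± 0.29 log2, adjusted p = 0.23). Herc6 had values of 8.48, 9.01, 8.42 and 8.60 by its brightest probe set, in the same order of arrays. A second probe set of Herc6, also above the floor on all 4 arrays, gave 6.65, 8.30, 6.35 and 6.84. The latter is a TNF difference of 1.65 log2 in wild-type and 0.49 log2 in knockout cells, where the brightest gave 0.54 and 0.19 log2. For Uba7 the brightest probe set lay at 8.27 to 8.59 with the knockout slightly higher, while a second gave 8.64 and 9.01 in wild-type and 7.45 and 8.18 in knockout cells. The dimmest of its probe sets gave 7.31 and 8.14 in wild-type and 6.20 and 6.83 in knockout cells. The genotype difference of Uba7 without TNF was thus 0.14 log2 by the brightest probe set and -1.19 and -1.05 log2 by the others, so 2 of 3 probe sets put it at least 2-fold lower in knockout cells. With TNF the 3 gave 0.15, -0.83 and -1.30 log2.

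Of the ubiquitin ligase genes, Trim21 and Trim30a were 2-fold higher with TNF in wild-type cells only by the fold rule, and the difference between genotypes was not tested. Trim21, the gene of an intracellular antibody receptor, had values of 8.63 and 9.71 in wild-type and of 8.39 and 9.08 in knockout cells (2.11-fold and 1.62-fold, adjusted p = 0.062). Trim30a had values of 6.85 and 7.91 in wild-type and of 7.04 and 7.55 in knockout cells (2.09-fold and 1.42-fold, adjusted p = 0.11). Trim25, whose product activates RIG-I, spanned 9.39 to 9.69. Xaf1 encodes an antagonist of inhibitors of apoptosis. Its values were 8.57 and 9.93 in wild-type and 7.88 and 8.57 in knockout cells. Xaf1 was 2.57-fold and 1.62-fold higher with TNF, and neither its TNF term (1.03 ± 0.19 log2, adjusted p = 0.081) nor its genotype term (-1.03 ± 0.19 log2, adjusted p = 0.056) passed. Ifi35, whose product regulates innate signalling, had values of 9.87 and 10.83 in wild-type and of 10.31 and 10.68 in knockout cells, with 1.93-fold and 1.28-fold differences (adjusted p = 0.15).

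**Figure D2:**
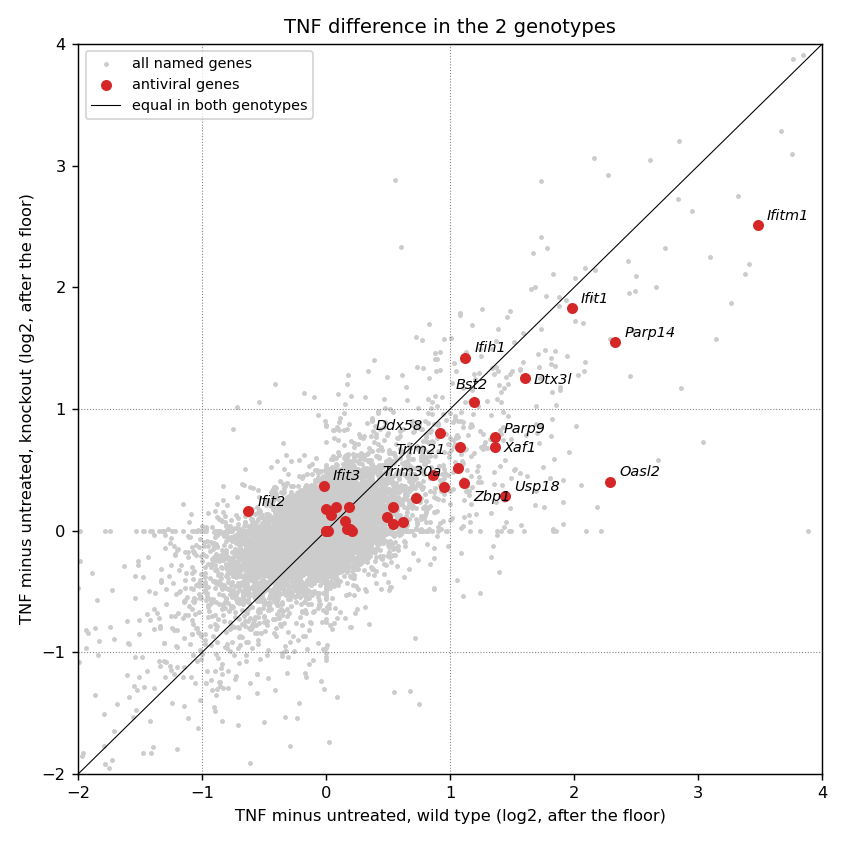
TNF difference (log2, after the floor) in wild-type cells on the x axis and in knockout cells on the y axis, with 1 point per gene, the 34 antiviral genes in red over all 18193 named genes in grey, dotted lines at 2-fold and a solid line of equal differences. The axes run from -2 to 4, outside which 45 genes are not drawn. Ifitm1, Ifit1, Parp14, Dtx3l, Ifih1 and Bst2 lie beyond 2-fold in both genotypes, and of the red points Oasl2 and Usp18 lie farthest below the line.

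The TNF difference was smaller in knockout cells for 27 of 34 genes on the deposited values, where it was smaller for 48.0% of all named genes and for 40.9% of those above the floor. After the floor it was smaller for 25 of the 34, larger for 7 and equal for 2. The median difference of the responses was then -0.28 log2 (quartiles -0.56 and 0.0), beside 0.0 over all genes. Oasl2 and Usp18 were at least 2-fold smaller in knockout cells (0.55% of all genes) and none was 2-fold larger (0.533%). Both have values below the floor, and on the deposited values 0 of 34 genes reached 2-fold. No degree of freedom is left to test whether the response differs between genotypes.

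Without TNF, 5 of 34 genes were at least 2-fold lower in knockout cells, the Ifit genes, Ifih1 and Bst2, against 1.94% of all genes, and none was 2-fold higher (0.973%). With TNF, 9 of 34 were lower (1.78%) and again none higher (1.04%). Ifit1, Ifih1 and Bst2 were lower in both treatments. Oasl2, Usp18, Xaf1, Parp9, Parp14 and Ifitm1 were so only with TNF by the fold rule, and Ifit2 and Ifit3 only without it. The median genotype difference was -0.11 log2 untreated and -0.39 log2 with TNF, beside 0.0 over all genes. The leukocyte markers, of which 12 were measured, had a summed signal of 1112 and 1613 in wild-type and of 2010 and 1508 in knockout cells, untreated and with TNF in that order. Ptprc, Cd68, Itgam, Adgre1, Tyrobp and Coro1a were at or below the floor on all 4 arrays. Lyz2, at 237, 347, 778 and 310, and Csf1r, at 96.9, 206, 238 and 209, were the leukocyte markers at least 2-fold higher in untreated knockout than wild-type cells. Of the fibroblast markers, Pdgfra, Dcn and Lum fell in knockout cells, by 1.62, 1.64 and 4.97 log2. The part of these markers in the antiviral values was not tested.

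**Figure D3:**
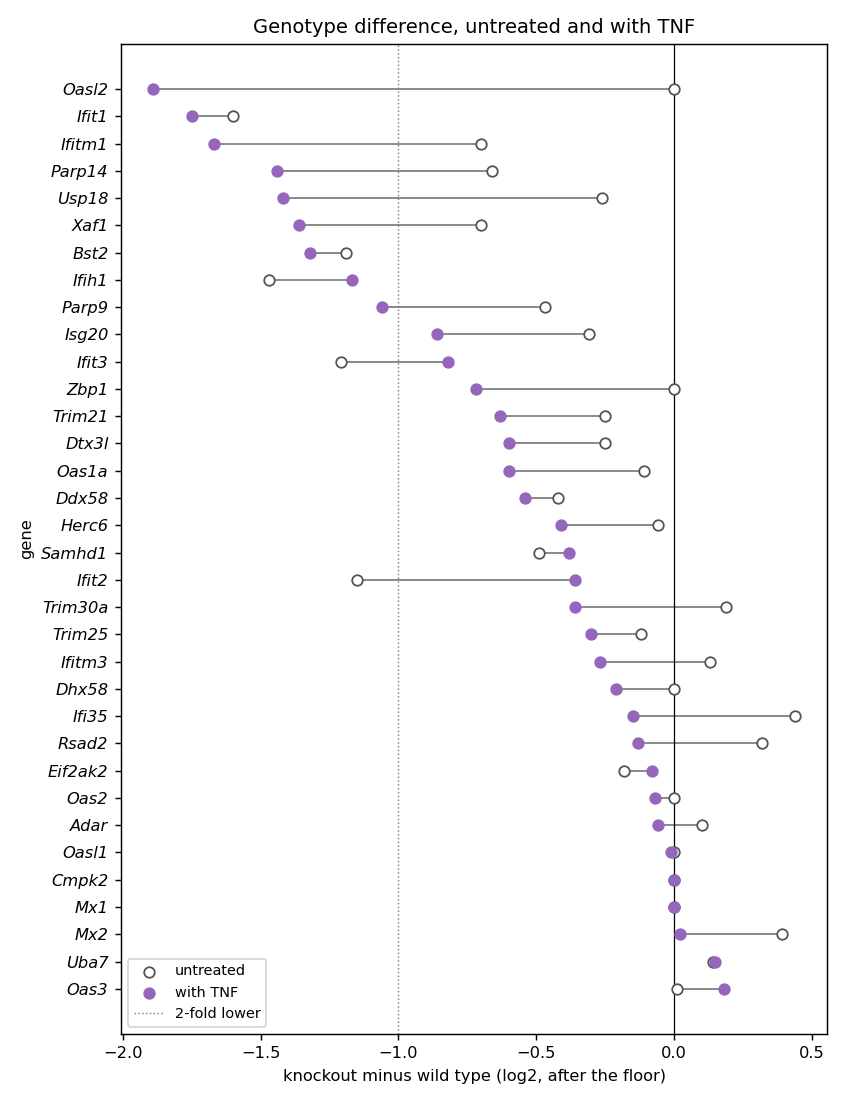
Knockout minus wild-type difference (log2, after the floor) for each of the 34 genes, ordered by the value with TNF, with open points for untreated and filled points for TNF-treated cells and a dotted line at 2-fold lower. The filled point lies left of the dotted line for 9 genes and the open point for 5, and no point lies beyond 2-fold on the right.

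In the limma fit, 7 of the 30 genes tested rose with TNF (Ifit1, Ifih1, Ddx58, Bst2, Parp14, Dtx3l and Ifitm1), where 1.57% of all genes tested rose. None fell (1.14% of all genes), also at an unadjusted p under 0.05. By genotype 4 of 30 fell in knockout cells (Ifit1, Ifit3, Ifih1 and Bst2, against 3.67% of all genes), and none was higher (2.94%), again also at an unadjusted p under 0.05. With 1 residual degree of freedom, any gap between the TNF responses of the genotypes enters this fit as residual spread. The genotype term rests on 1 untreated and 1 TNF-treated array per genotype, so FAN and cell preparation cannot be told apart. With the floor at the 70th percentile Ifit1, Ifih1 and Parp14 lost the TNF call and Ifit1 the genotype call, and with the mean of all probe sets Ddx58 and Parp14 lost the TNF call. Both counts became 0 when no filter on low genes was used and when the other factor was left out of the model, where limma still gave 10 and 10 genes higher with TNF, and 6 and 3 lower in knockout cells, at an unadjusted p under 0.05.

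Genes that make or relay interferon were set beside these. Ifnb1, the interferon-beta gene, lay below the floor on all 4 arrays. Of 25 measured genes of the interferon pathway TNF-treated cells had 6 at least 2-fold higher in the wild type (1.48% of all genes) and 3 in the knockout (0.907%), while 5 of 21 tested rose (1.57%). They were the receptor genes Ifnar2 (0.77 ± 0.10 log2), Ifngr1 (0.91 ± 0.11 log2) and Ifngr2 (1.12 ± 0.10 log2), the transcription factor gene Irf1 (1.64 ± 0.12 log2) and the kinase gene Ikbke (1.54 ± 0.17 log2). The kinase gene Jak2 and the endosomal RNA sensor gene Tlr3 were 2-fold higher in wild-type cells without passing limma (adjusted p = 0.077 and 0.071). By genotype 3 of 21 (3.67% of all genes tested) fell in knockout cells, Ifnar2, Jak1 and Stat2, by 0.59, 0.55 and 0.60 log2.

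Of 45 further interferon-stimulated genes measured, TNF-treated cells had 5 at least 2-fold higher in the wild type (1.48% of all genes) and 3 in the knockout (0.907%), while 5 of 33 tested rose (1.57%). These were Plscr1 (1.90 ± 0.11 log2), which encodes a phospholipid scramblase, Slfn2 (1.89 ± 0.14 log2), Nmi (1.11 ± 0.11 log2), Rnf213 (1.03 ± 0.10 log2) and Lgals3bp (0.65 ± 0.09 log2). Rtp4 was 2-fold higher in wild-type cells and did not pass (1.37 ± 0.24 log2, adjusted p = 0.074). By genotype 6 of 33 fell in knockout cells (Ifi27, Ifitm2, Lgals3bp, Parp12, Slfn9 and Nmi, against 3.67% of all genes tested) and 2 of 33, Ifi30 and Pml, were higher (2.94%). By the fold rule 1 of 45 was lower in untreated knockout cells (1.94% of all genes) and 3 of 45 with TNF (1.78%). The median TNF difference of the further genes was 0.22 log2 in wild-type and 0.08 log2 in knockout cells.

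**Figure D4:**
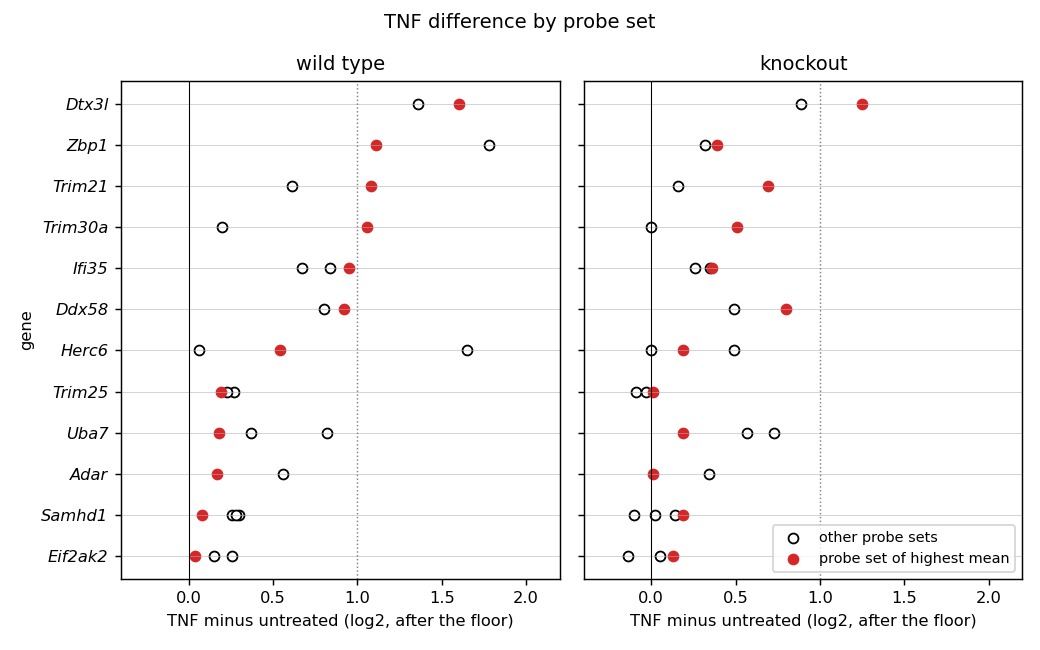
TNF difference (log2, after the floor) of every probe set above the floor on at least 1 array, for the 12 genes with more than 1 such probe set, in wild-type (left) and knockout cells (right), with the probe set of highest mean in red and a dotted line at 2-fold. In wild-type cells Herc6 and Zbp1 have another probe set beyond 2-fold and farther right than the red one, and Trim30a and Trim21 have one to its left.

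For 12 of the 34 genes a total of 19 other probe sets lay above the floor on at least 1 array. For Trim21, Zbp1, Dtx3l and Trim30a, each 2-fold higher with TNF in wild-type cells by the brightest probe set, the 4 other probe sets all had the same sign, and 2 of them were 2-fold higher too. In knockout cells the other probe set of Dtx3l had the same sign and was under 2-fold. Conversely, among genes under 2-fold by the brightest probe set, 1 other probe set, of Herc6, was 2-fold higher with TNF in wild-type cells. For the genotype difference, 2 other probe sets, both of Uba7, were 2-fold lower in untreated knockout cells, and 3, of Uba7, Zbp1 and Herc6, with TNF, so the counts of 5 and 9 lower genes depend on which probe set stands for a gene. The second probe set of Zbp1 had values of 5.71 and 8.05 in wild-type and of 5.60 and 6.59 in knockout cells. Ifit1, Ifih1, Bst2, Ifitm1, Oasl2, Usp18 and Parp9 had 1 probe set each, so no such comparison exists for them.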

How the data were processed

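The deposited log2 probe set values of the 4 arrays were used as given. MAS5 is named in the submitters' processing notes, with no version. How the authors summarised probes and normalized between arrays is otherwise not given in the sources used here, and either step can compress differences, above all of low values. Array medians differed by 0.08 log2. Of 45101 probe sets, 34945 name 1 gene, 932 several, 64 are controls and 9160 are unnamed here. Entrez identifiers matched the RefSeq table (GRCm38.p6, used for names, gene order and promoters) for 34741. The additive model was fitted with limma 3.58.1 (R 4.3.3, lmFit, eBayes with trend, Benjamini-Hochberg) to all genes that exceeded the floor on 2 or more arrays, and the code was tested on simulated data. The genes and lists were chosen with earlier results of these data known. All measured members are named, and from the lists of 32 pathway and 51 further interferon-stimulated genes those 2-fold apart with TNF or past limma. Ifit3's promoter lies outside the rule for sequences. Alternatives were other floors, normalizations, probe set rules and filters, a 1.5-fold threshold and other limma settings.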

Additional observations from a re-analysis of the deposited data

Results flagged for a closer look

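Ifit2 and Ifit3 had TNF differences of opposite sign in the 2 genotypes. For Ifit2 the log2 difference was -0.63 in wild-type and 0.16 in knockout cells, a gap of 0.79. For Ifit3 it was -0.02 and 0.37, a gap of 0.39, and the wild-type value is close to 0. With quantile normalization that wild-type value was 0.02, so its sign depends on the processing. Each sign rests on 1 array against 1, and the difference between genotypes was not tested.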

How the results depend on the processing

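With the floor at the 70th percentile the counts of genes 2-fold higher with TNF in knockout cells and 2-fold lower in untreated knockout cells went from 6 to 2 and from 5 to 1, and the TNF medians to 0.18 log2 in wild-type and 0.01 log2 in knockout cells. A 1.5-fold threshold gave 10 genes higher with TNF in knockout cells, 8 lower in untreated and 15 lower in TNF-treated knockout cells, and 8 with a smaller response. The count with a 2-fold smaller response, 2 (Oasl2 and Usp18), was 1 with the floor at the 30th percentile (1 shared), 3 at the 70th (0 shared), 0 with deposited values, 1 with log2(value + 16) (0 shared) and 4 with the mean of all probe sets (2 shared). With the floor at the 70th percentile limma called 8 for TNF and 4 for genotype, sharing 4 of the 7 and 3 of the 4, and with the mean of all probe sets 5 for TNF, all among the 7. The limma counts of 7 (TNF) and 4 (genotype) became 11 and 7 with log2(value + 16), 0 and 0 without a filter and 0 and 0 without the other factor, and the genotype count 7 for genes above the floor on all 4 arrays. The cause was not tested, other than that the higher floor hides low values. For single genes no 2-fold difference changed sign under the 7 alternatives of scale, floor and probe set. The adjusted p of Ifit1 for TNF ran from 0.0048 to 0.73 over 9 alternatives. No pairing by replicate number was possible because each condition has 1 array, but the additive fit compares treatments within genotypes, and leaving out the genotype term is its unblocked form.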
